A study of Mus musculus with 6 samples.

Results

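The genes examined are 31 genes of mitochondrial and peroxisomal fatty acid oxidation: the receptor PPARα, the enzymes that carry acyl groups into mitochondria, the enzymes of the mitochondrial and the peroxisomal spiral, the acceptors of their electrons, and proteins of peroxisomal import. They were listed by their place in the pathway, with earlier results of these data known but with no measured value in the rule, out of 18193 genes on the array. Each was read through its probe sets with exactly 1 gene symbol in the platform annotation. Acsl1, the acyl-CoA synthetase gene, had none under that rule and is not analysed here. The other 30 genes had 58 such probe sets, 54 of them above the intensity floor used for testing, and all 30 genes were tested.

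Liver RNA came from C57BL/6 mice injected intravenously with an AAV8 vector, an adeno-associated virus that reaches hepatocytes, and 4 weeks later put on CDAHFD for 4 weeks. CDAHFD is a high-fat diet of defined amino acids without choline that makes the liver steatotic, and every animal received it. The vector carried luciferase in the control group and Nfkbiz, the gene of the nuclear IκB protein IκBζ, in the other, with 3 arrays per group. No source used here gives the vector's promoter, the animals' age and sex or their feeding state at sampling, and there was no group without a vector or without the diet.

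Fatty acid oxidation shortens acyl-CoA chains by removing acetyl-CoA units. Mitochondria take long chains through the carnitine shuttle and oxidise them in repeated cycles of dehydrogenation, hydration, dehydrogenation and thiolysis, and the liver turns much of the acetyl-CoA into ketone bodies. Peroxisomes shorten very long and branched chains and pass the products on as carnitine esters. In hepatocytes PPARα, a nuclear receptor activated by fatty acids, controls many of these genes by binding with RXR to DR1 elements, direct repeats of a hexamer spaced by a single base.

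Promoter sequence was available from RefSeq (GRCm38.p6) for 25 of the 31 genes, as windows from 250 bases before to 50 bases after a start site. Both strands were searched for the DR1 letters AGGTCANAGGTCA. No gene of the 25 had an exact match, and 0.0396% of all 32851 windows had one. Within 2 mismatches of the 12 fixed letters there were matches for 2 genes, Etfa and Slc25a20, or 7.14% of the 28 windows of these genes against 3.86% of all windows. A single AGGTCA hexamer, of which an exact DR1 holds a pair, was found for 3 genes, Acadm, Acadvl and Cpt1a, or 10.7% of their windows against 16.3% of all. A match describes letters in the window and is no evidence of binding. The 4 sequences shown are the 250 bases before the start of Crot, the gene with the smallest p here, of Hadha, whose start region is shared with Hadhb, of Etfa, with the DR1-like stretch in capitals, and of Acadm, with the half-site in capitals. Each is written 5′ to 3′ on the gene's own strand, which is the minus strand for all 4.
Crot: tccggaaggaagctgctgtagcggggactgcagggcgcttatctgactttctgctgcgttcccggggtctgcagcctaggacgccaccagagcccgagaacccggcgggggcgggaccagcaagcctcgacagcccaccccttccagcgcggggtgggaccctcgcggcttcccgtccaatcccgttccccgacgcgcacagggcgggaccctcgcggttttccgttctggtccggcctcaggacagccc
Hadha: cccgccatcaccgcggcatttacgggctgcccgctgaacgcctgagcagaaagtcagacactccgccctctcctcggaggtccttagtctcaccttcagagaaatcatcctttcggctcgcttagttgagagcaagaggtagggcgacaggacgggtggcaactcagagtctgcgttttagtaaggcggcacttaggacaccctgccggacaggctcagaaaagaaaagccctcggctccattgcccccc
Etfa: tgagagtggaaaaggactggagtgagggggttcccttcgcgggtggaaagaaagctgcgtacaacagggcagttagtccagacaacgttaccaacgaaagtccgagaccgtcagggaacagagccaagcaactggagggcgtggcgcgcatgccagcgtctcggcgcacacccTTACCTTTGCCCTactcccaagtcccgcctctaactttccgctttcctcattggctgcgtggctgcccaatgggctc
Acadm: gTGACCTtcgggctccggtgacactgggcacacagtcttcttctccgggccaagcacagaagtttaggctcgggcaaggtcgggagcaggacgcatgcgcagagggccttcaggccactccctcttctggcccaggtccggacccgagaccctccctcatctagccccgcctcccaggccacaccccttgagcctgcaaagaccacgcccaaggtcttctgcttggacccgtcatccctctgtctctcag
They lie at chr5:8997147-8997396, chr5:30154981-30155230, chr9:55512244-55512493 and chr3:153944644-153944893. The starts of Hadha and Hadhb, which encode the 2 subunits of the mitochondrial trifunctional protein, are 272 bases apart and point away from each other, so the Hadha stretch lies between both starts. In Etfa the DR1-like stretch begins 77 bases before the start, and it reads as a DR1 on the other strand.

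On the arrays as a whole, the mean of the middle 96% of intensities was between 495.4 and 496.5, and pairs of arrays correlated at 0.959 to 0.971 across genes, which are not independent replicates. As a check of the labels, Nfkbiz probe set 1448728_a_at read 221, 229.5 and 179.7 with luciferase against 4424, 4073 and 2006 with Nfkbiz, a log2 difference of 3.98 ± 0.27 (limma adjusted p = 0.000901 over the probe sets). The other 2 Nfkbiz probe sets, 1417483_at and 1457404_at, had differences of 0.30 ± 0.19 and -0.89 ± 0.54 and did not pass. By its highest mean 1417483_at stood for Nfkbiz among the genes, so Nfkbiz was not called there (limma adjusted p = 0.554). The probe set that stands for a gene can thus miss a difference that another shows. On 1448728_a_at the third Nfkbiz array had the lowest of the 3 raised readings. Alb, the albumin gene and a defining hepatocyte marker, had group means of 42878 and 43844; of the 12 hepatocyte markers measured (median 0.023) 1 fell, Tat, by 1.17 on the log2 scale (limma adjusted p = 0.0218). Of the 7 fat and muscle markers on the array, Adipoq, Lep, Myh4 and Ucp1 were below the floor. Plin4, Ckm and Acta1 were above it and did not pass. Their mean intensities were 350, 119 and 76.7 with luciferase and 299, 97.8 and 77.7 with Nfkbiz. Of the 12 measured Kupffer cell and macrophage markers 11 had a positive difference (median 0.59 on the log2 scale). At an unadjusted limma p under 0.05 there were 9, all higher, against 12.0% of all genes (5.03% of all genes higher). Past the adjusted threshold there were 0. Of 10 stellate cell markers 9 had a negative difference (median -0.54). All 10 read highest on the first luciferase array. Their median log2 deviations from each gene's mean were 0.66, 0.11 and -0.19 with luciferase, in array order. With Nfkbiz they were -0.29, -0.28 and 0.0022, so the third luciferase array lay among the Nfkbiz arrays. Of 9 T and NK cell markers 6 had a positive difference (median 0.39) and 1 passed. This was Gzma, higher by 1.77 ± 0.28 on the log2 scale (limma adjusted p = 0.0427). In whole liver, fewer cells of a type and less RNA per cell cannot be told apart, and the part of cell makeup in the results was not tested.

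No gene of fatty acid oxidation passed the test between Nfkbiz and luciferase livers. Intensities were compared as log2 values with limma, and the threshold was an adjusted p of 0.05 over all 13312 genes tested. Of the 30 genes, 0 passed, where 30 of all genes did (0.225% of genes tested, 0.0676% higher and 0.158% lower in the Nfkbiz group). The smallest adjusted p among the 30 was 0.183, for Crot. At an unadjusted p under 0.05 there were 2 of 30, Crot higher and Ppara lower in the Nfkbiz group, against 12.0% of all genes (5.03% of all genes higher). Groups without overlap were found for 2 of 30, Crot and Acadl, both higher, against 18.0% of all genes. Either count is 6.67% of the 30, below the share of all genes.

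On the probe set that stood for each gene, the differences were small, but some intervals reached close to a doubling. They ran from -0.38 for Ppara to 0.57 for Crot on the log2 scale, and 29 of 30 were smaller than 0.5 in size. All 30 confidence intervals at the 95% level, from limma's moderated errors, lay between -1 and 1. The lowest bound was -0.72, for Ppara, and the highest 0.94, for Abcd2, so a doubling lay outside the interval of each of these probe sets. Some dimmer probe sets of the same genes had intervals that went beyond -1 or 1. The upper bound was 1.17 for Abcd2 1456812_at, 1.31 for Abcd2 1439835_x_at and 1.03 for Cpt2 1447820_x_at. The lower bound was -1.36 for Acadl 1448988_at. Of the 30 differences 23 were positive and 7 negative, with a median of 0.11, beside 47.8% positive and a median of -0.016 over all genes. The count varied with the scaling between arrays: 18 were positive after quantile normalization, 17 after loess normalization and 23 after median centring, with medians of 0.045, 0.055 and 0.15, where those of all genes were 0.0081, 0.0074 and 0.018.

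**Figure D1:**
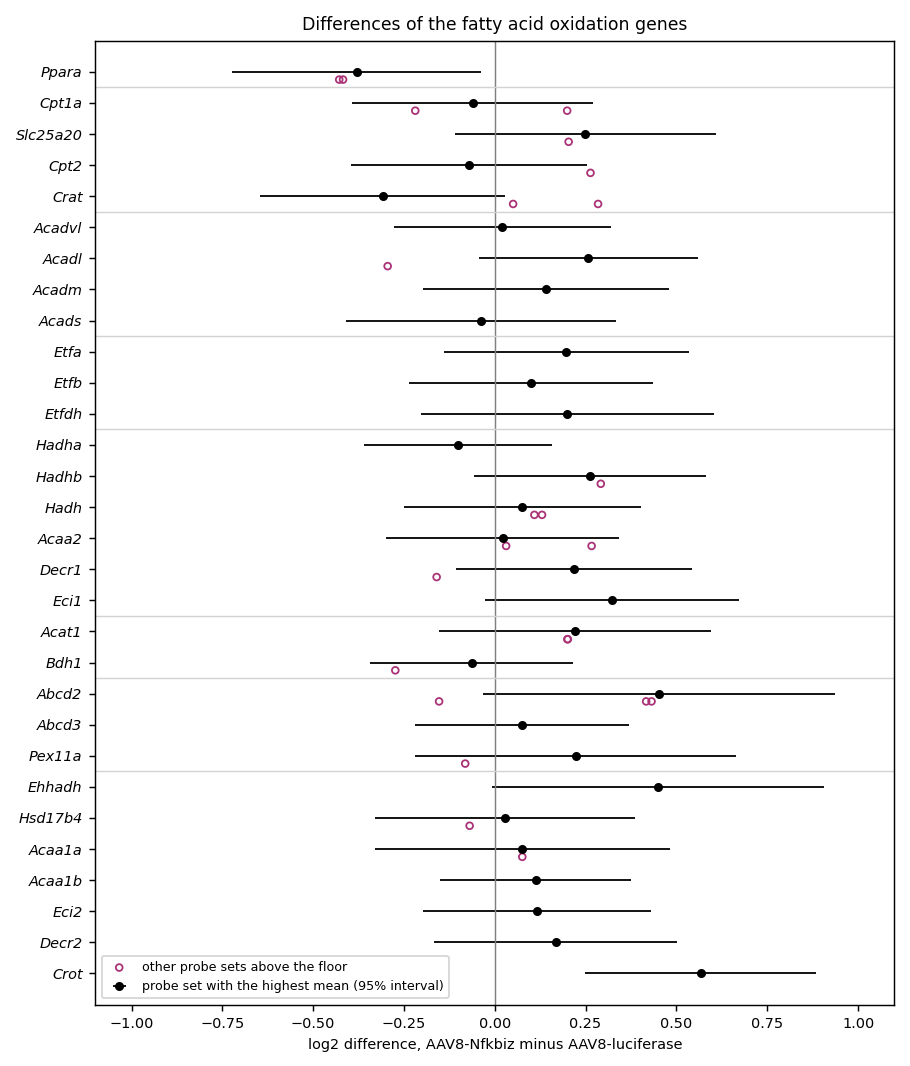
Log2 differences of 30 fatty acid oxidation genes, AAV8-Nfkbiz minus AAV8-luciferase, with the probe set of highest mean as a filled point and its 95% confidence interval as a bar (3 arrays per group); open circles are the other probe sets above the floor, and grey lines part the roles. All bars lie between -1 and 1, and those of Ppara and Crot do not cross 0.

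Ppara, the gene of the receptor itself, had lower values in the Nfkbiz group on all 3 of its probe sets. Probe set 1457721_at, which stood for the gene, read 2549, 3293 and 3121 with luciferase against 2639, 1942 and 2320.5 with Nfkbiz. The first luciferase array lay below the first Nfkbiz array, so the groups overlapped. Its difference was -0.38 ± 0.15 (SE, limma adjusted p = 0.363, unadjusted p = 0.0332), which did not pass. Probe set 1449051_at read 2325, 2964 and 2969 with luciferase against 2264, 1846 and 2009.7 with Nfkbiz. There the groups did not overlap, at -0.43 ± 0.15 (limma adjusted p = 0.362 over 27022 probe sets). The remaining probe set, 1439675_at, had a difference of -0.42 ± 0.17 (limma adjusted p = 0.434 over the probe sets). The 3 probe sets read the same transcript in the same RNA and are not separate evidence. Without the second Nfkbiz array, the lowest for Ppara, the gene's difference was -0.26 with an unadjusted limma p of 0.127.

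In the carnitine shuttle no gene passed, and 3 of 4 differences were negative. Cpt1a encodes the outer membrane carnitine palmitoyltransferase, the step that malonyl-CoA inhibits. It read 9628, 11991 and 11312 with luciferase against 12609, 9540.1 and 9569 with Nfkbiz, and the groups overlapped widely (difference -0.061 ± 0.15, limma adjusted p = 0.901, interval -0.39 to 0.27). Its other probe sets had differences of -0.22 and 0.20, of opposite sign. Slc25a20, the carnitine-acylcarnitine translocase gene, read 7103, 8552 and 10675 with luciferase against 10953, 10926 and 9105 with Nfkbiz. The first luciferase array was the lowest and the third luciferase array lay among the Nfkbiz arrays (0.25 ± 0.16, limma adjusted p = 0.574). Cpt2, the inner membrane transferase gene, read 4528 ± 643 against 4299.6 ± 499.6 (SD, n = 3 per group), with a difference of -0.071 ± 0.15 (limma adjusted p = 0.883). Crat, the carnitine acetyltransferase gene, read 737, 889.5 and 867 with luciferase against 747, 670.4 and 598 with Nfkbiz on its brightest probe set. The first Nfkbiz array lay within the luciferase range there and the other 2 below it, and the difference was -0.31 ± 0.15 (limma adjusted p = 0.454). A second Crat probe set, 1417008_at, went the other way at 0.28 ± 0.18.

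The acyl-CoA dehydrogenases, which open each mitochondrial cycle for chains of decreasing length, had differences between -0.037 and 0.26, and none passed. Acadl, the long-chain enzyme gene, read 11762, 13133 and 10386 with luciferase against 13219, 15778 and 13135 with Nfkbiz. Its groups did not overlap, but the second luciferase and the third Nfkbiz array were close together, at 13133 and 13135, and it did not pass (0.26 ± 0.14, limma adjusted p = 0.487). Its other probe set, 1448988_at, was close to the floor, between 36.8 and 72.2. The very long-chain gene Acadvl read 11069.8 ± 1139 against 11242 ± 1255 (SD, n = 3) with an interval of -0.28 to 0.32. For Acadm, the medium-chain enzyme gene, the means were 18236 ± 2189.7 against 20195 ± 3321 and the interval -0.20 to 0.48. Acads, the short-chain enzyme gene, read 5242 ± 1183 against 5041 ± 508 with an interval of -0.41 to 0.33. Limma's adjusted p was between 0.487 and 0.967 for these 4 genes.

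The electrons these dehydrogenases take up pass to the electron transfer flavoprotein, made from Etfa and Etfb, and on to ubiquinone through the Etfdh product. All 3 genes had a positive difference and none passed: 0.20 ± 0.15 for Etfa, 0.099 ± 0.15 for Etfb and 0.20 ± 0.18 for Etfdh (SE, limma adjusted p from 0.647 to 0.84). Etfa read 11352, 13986 and 11293 with luciferase against 14104, 16255 and 11768 with Nfkbiz. On the third Nfkbiz array it lay below the second luciferase array. Etfdh read 6113, 7991 and 4662 with luciferase against 7221, 7419.6 and 6431 with Nfkbiz, so the luciferase arrays held both the lowest and the highest value.

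Of the later mitochondrial steps, 5 of 6 genes had a positive difference and 0 passed. Hadha and Hadhb, which share the start region shown above, encode the subunits of the trifunctional protein that hydrates, dehydrogenates and cleaves long chains. Hadha read 5331, 5883 and 5767 with luciferase against 5591, 5344 and 4911 with Nfkbiz, with a difference of -0.10 ± 0.12 (limma adjusted p = 0.777). Hadhb read 9875, 11799 and 9280.3 with luciferase against 12589, 13848 and 10682 with Nfkbiz, with a difference of 0.26 ± 0.14 (limma adjusted p = 0.507). The signs differed, and the intervals were -0.36 to 0.16 and -0.058 to 0.58. Both genes were read on the same arrays, so overlap of these intervals does not bear on the difference between the 2 genes. That difference was not tested. Without the third Nfkbiz array the unadjusted limma p of Hadhb fell under 0.05.

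Eci1 encodes an enoyl-CoA isomerase and Decr1 a dienoyl-CoA reductase, auxiliary enzymes that unsaturated chains need. Eci1 read 4839.5, 6007 and 5481 with luciferase against 7292, 7829 and 5468 with Nfkbiz. The first 2 Nfkbiz arrays were the highest of the 6 and the third lay within the luciferase range (0.32 ± 0.16, limma adjusted p = 0.447). Decr1 read 8889, 9913 and 8745 with luciferase against 11015, 12478 and 8823 with Nfkbiz, again with the third Nfkbiz array among the luciferase arrays (0.22 ± 0.15, limma adjusted p = 0.585). Its dimmer probe set 1449443_at had a difference of -0.16 ± 0.15. Hadh, the gene of the dehydrogenase for shorter chains, read 30021 ± 4483 against 31485 ± 2988, and Acaa2, the mitochondrial thiolase gene, 19704 ± 2455 against 19994 ± 2456 (SD, n = 3), with limma adjusted p-values of 0.874 and 0.969.

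Acat1 and Bdh1 lead from acetyl-CoA to ketone bodies. Acat1, the acetoacetyl-CoA thiolase gene, read 15057, 20652 and 18825 with luciferase against 21662, 24800.1 and 17242 with Nfkbiz, and its difference was 0.22 ± 0.17 (limma adjusted p = 0.645). Its 3 probe sets had differences between 0.20 and 0.22. Bdh1, the gene of the dehydrogenase that makes 3-hydroxybutyrate, read 15962 ± 555 against 15339 ± 1805 (SD, n = 3), with a difference of -0.063 ± 0.13 (limma adjusted p = 0.877). Its interval, -0.34 to 0.22, was among the narrowest. The dimmer Bdh1 probe set 1426959_at had a difference of -0.27 ± 0.15 with an interval of -0.61 to 0.061.

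Among the 10 peroxisomal genes 0 passed, and all 10 differences were positive, though 8 were after quantile normalization, 7 after loess normalization, 8 with the mean of a gene's probe sets and 8 without the first luciferase array. Crot encodes carnitine O-octanoyltransferase, which makes the medium-chain carnitine esters that leave peroxisomes. It read 11809.7, 14578 and 14617 with luciferase against 20996, 22329 and 17451 with Nfkbiz. Every Nfkbiz array was above every luciferase array, and the means were 13668 ± 1609.6 against 20259 ± 2521 (SD, n = 3), a 1.48-fold difference. On the log2 scale this was 0.57 ± 0.14 (SE, interval 0.25 to 0.89, limma adjusted p = 0.183, unadjusted p = 0.00259), which did not pass over all genes. Leaving out any 1 array gave differences of 0.47 to 0.67 with limma adjusted p-values of 0.158 to 0.446. A second Crot probe set, 1440474_at, was below the floor, between 6.89 and 77.5.

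**Figure D2:**
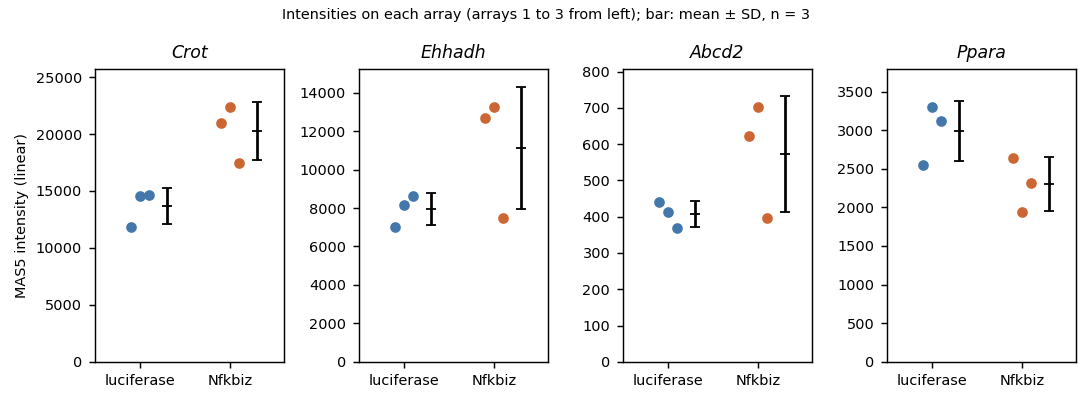
MAS5 intensities (linear axis from 0) of Crot, Ehhadh, Abcd2 and Ppara on each of the 3 luciferase and 3 Nfkbiz arrays, in array order from the left within a group, with the group mean ± SD beside them. Crot separates the groups, Ehhadh and Abcd2 are high on the first 2 Nfkbiz arrays and within the luciferase range on the third, and Ppara overlaps at one array of each group.

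Ehhadh encodes the peroxisomal bifunctional enzyme of straight chains, a classic PPARα target. Its values were 7024, 8169 and 8614 with luciferase against 12707, 13232 and 7484 with Nfkbiz. The first 2 Nfkbiz arrays stood far above all others, and the third lay between the first and second luciferase arrays. The means were 7936 ± 820.3 against 11141 ± 3178 (SD, n = 3) and the difference 0.45 ± 0.21 (limma adjusted p = 0.424). Hsd17b4, the bifunctional enzyme gene that also serves branched chains and bile acid precursors, read 12715 ± 2757 against 12764 ± 654, and its 2 probe sets had differences of 0.028 and -0.069.

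The 2 peroxisomal 3-ketoacyl-CoA thiolases come from near-identical genes, Acaa1a and Acaa1b. Acaa1b read 30129, 33683 and 30549 with luciferase against 35644, 33004 and 33282 with Nfkbiz (0.11 ± 0.12, limma adjusted p = 0.754). Acaa1a, on probe set 1456011_x_at, read 1241, 1181 and 1852 with luciferase against 1629, 1479 and 1319 with Nfkbiz (0.076 ± 0.18, limma adjusted p = 0.901). Probe sets of such paralogs can bind both transcripts, and 2 further probe sets listed for both genes were not used. Eci2, Decr2 and Hsd17b4 completed the peroxisomal spiral, Eci2 and Decr2 acting on unsaturated chains. Their differences were 0.12 ± 0.14, 0.17 ± 0.15 and 0.028 ± 0.16, and none passed (limma adjusted p from 0.702 to 0.964).

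Import into peroxisomes was represented by the ABC transporters Abcd2 and Abcd3, and peroxisome division by Pex11a. Abcd2 read 441, 413 and 370.1 with luciferase against 623, 701 and 395 with Nfkbiz. As for Ehhadh, the first 2 Nfkbiz arrays were the highest and the third lay among the luciferase arrays (0.45 ± 0.22, limma adjusted p = 0.445). Of its 3 other probe sets above the floor, 2 had positive differences, 0.43 and 0.42, and 1419748_at had -0.15. Abcd3 read 17909.8 ± 1449 against 18906 ± 2197 (SD, n = 3), with a difference of 0.075 ± 0.13. Pex11a had differences of 0.22 ± 0.20 on probe set 1449442_at and -0.081 ± 0.16 on 1419365_at. On the third luciferase array these probe sets read 2355, the lowest of 6, and 3732, the highest.

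Across probe sets, 16 genes had more than 1 above the floor. For 8 of these all probe sets had 1 sign, and for the other 8 both signs occurred. Over all 54 probe sets 0 passed (0.0703% of the 27022 probe sets fitted did), and 4 had an unadjusted p under 0.05, against 10.6% of those fitted: the 3 of Ppara, lower, and 1 of Crot, higher.

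The level of the 30 genes differed between arrays of the same group. Each gene's log2 intensity was set against its mean over the 6 arrays, and the median over the 30 genes was -0.19, 0.063 and -0.041 with luciferase, in array order, and 0.14, 0.17 and -0.15 with Nfkbiz. The first luciferase array held the lowest value of 15 of the 30 genes, and the second Nfkbiz array the highest of 16. Only 1 of 30 genes was above its own mean on the first luciferase array, 28 on the first Nfkbiz array and 5 on the third Nfkbiz array. For the 12 hepatocyte markers measured, the same medians were -0.14, 0.096 and 0.042 with luciferase, in array order, and 0.073, 0.11 and -0.16 with Nfkbiz. Both sets were thus lowest on the first luciferase and the third Nfkbiz array. Over all genes tested the medians lay between -0.037 and 0.064, and the first luciferase array had the highest. The part of hepatocyte content or array brightness in these values was not tested.

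**Figure D3:**
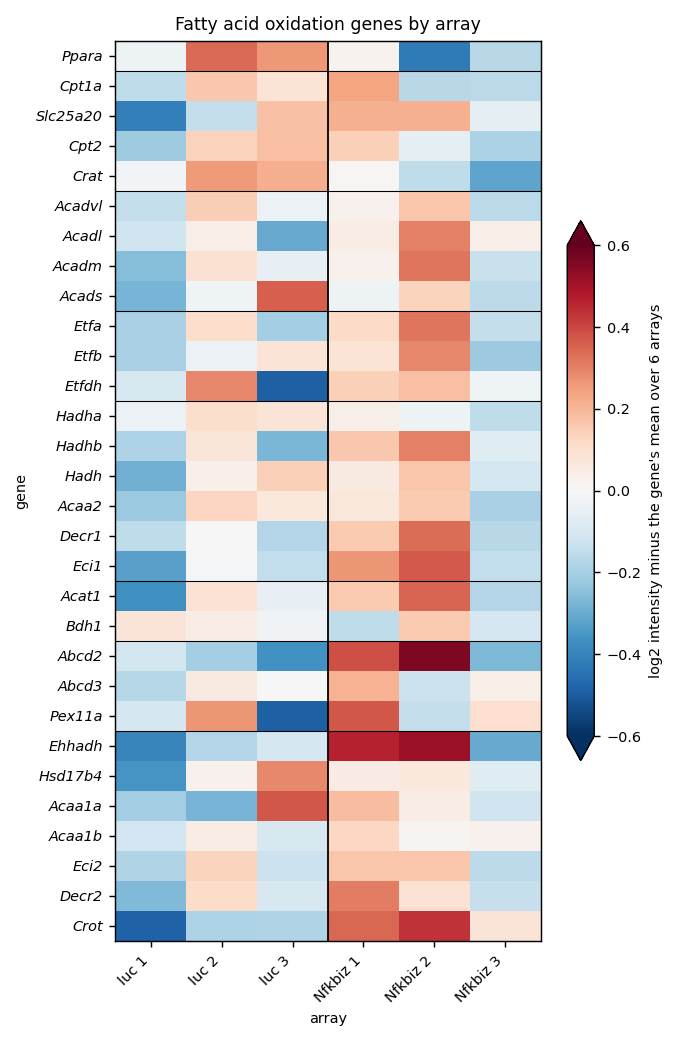
Log2 intensity of 30 fatty acid oxidation genes on each array, minus the gene's mean over the 6 arrays (colour, red above and blue below, from -0.6 to 0.6), ordered by role. The first luciferase array is below the mean for 29 of 30 genes, and the third Nfkbiz array for 25 of 30.

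**Figure D4:**
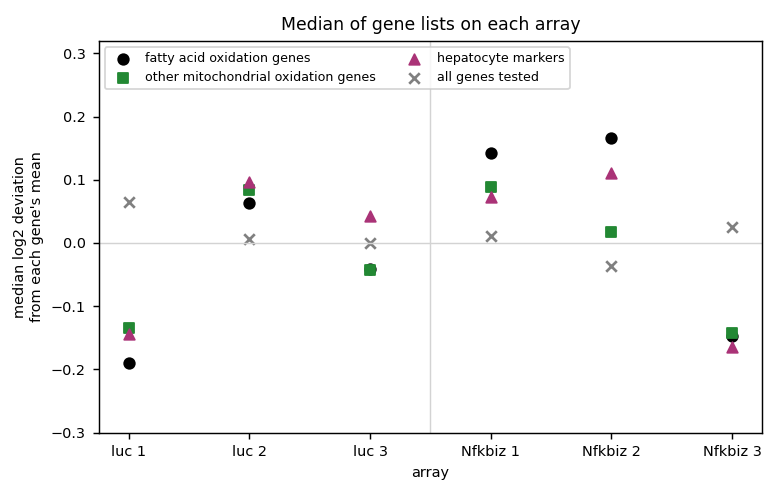
Median deviation from each gene's own mean (log2) on each array, for 30 fatty acid oxidation genes, 26 other mitochondrial oxidation genes, 12 hepatocyte markers and all 13312 genes tested. The first 3 sets are lowest on the first luciferase and the third Nfkbiz array, at -0.19 and -0.15 for the fatty acid oxidation genes.

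Without the third Nfkbiz array, 6 of the 30 genes had an unadjusted limma p under 0.05, all higher: Hadhb, Decr1, Eci1, Abcd2, Ehhadh and Crot. The share of all genes in that fit was 12.0%. The groups of 3 and 2 arrays then did not overlap for 11 genes, against 30.4% of all genes, a weaker criterion than with 3 against 3, and again 0 passed after adjustment (smallest 0.129). This array also had the lowest Nfkbiz reading of its group, 2006 against 4424 and 4073. Whether that bears on the oxidation genes was not tested. Without the first luciferase array, the other low one, 3 of the 30 genes had an unadjusted limma p under 0.05, Crot higher and Ppara and Crat lower, against 10.1% of all genes. In that fit 18 of 30 differences were positive, with a median of 0.052, where all 6 arrays gave 23 and 0.11; without the third Nfkbiz array they were 26 and 0.23.

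Other genes of the pathway, not among the 31, were also tested. Of 26 measured further genes of mitochondrial oxidation 0 passed, 13 had a positive and 13 a negative difference, and the median was 0.0060. The smallest p-values among them were those of Acsm5, Acot2, Acsl4 and Mmut, with differences of -0.24 ± 0.12, 0.31 ± 0.19, 0.26 ± 0.16 and -0.15 ± 0.12 (limma adjusted p from 0.45 to 0.679). Of 21 further peroxisomal oxidation genes 0 passed (median 0.12). Hacl1, the lyase gene of α-oxidation, had the largest difference, reading 4181, 6752 and 3005 with luciferase against 10923, 13262 and 6155 with Nfkbiz. Its first 2 Nfkbiz arrays were the highest and the third lay below the second luciferase array (1.13 ± 0.32, limma adjusted p = 0.203). Tysnd1, the peroxisomal processing protease gene, Nudt19, a peroxisomal CoA diphosphatase gene, and the acyl-CoA synthetase gene Slc27a4 had differences of -0.44 ± 0.15, -0.27 ± 0.12 and -0.40 ± 0.20, and none passed. Among 12 peroxisome biogenesis genes 0 passed (median 0.040), with Pex16 at 0.41 ± 0.13, Pex5, the import receptor gene, at -0.38 ± 0.16, Pex3 at 0.21 ± 0.15 and Pex11g at 0.16 ± 0.12.

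Of the 5 measured genes related to ketone bodies and their transport 0 passed (median 0.41). Slc16a1, the monocarboxylate transporter gene MCT1, read 3586, 3678 and 3853 with luciferase against 5586, 5094 and 6250.2 with Nfkbiz. Its groups did not overlap, and its p was the smallest of the 5 (0.60 ± 0.12, limma adjusted p = 0.108). Slc16a6, another monocarboxylate transporter gene, had a difference of 0.61 ± 0.27, the hormone gene Fgf21 of 0.41 ± 0.43 and the deacetylase gene Sirt3 of -0.13 ± 0.19.

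Of the further pathway lists, calls were made in that of partners and regulators of PPARα. Of 18 measured, 3 fell and 0 rose over all genes, beside 0.158% of all genes tested lower and 0.0676% higher. The 3 were Lpin1, Klf15 and Ppargc1a. The other genes did not pass. The list was drawn up with earlier results of these data known, so it is no independent evidence of a direction. Its median was -0.42, with 16 of 18 differences negative, and 8 of the 18 genes had groups without overlap, all lower, against 18.0% of all genes (1333 of 13312 lower). Ppargc1a, the gene of the coactivator PGC-1α, read 723, 994 and 678 with luciferase against 405, 279.8 and 327 with Nfkbiz (-1.24 ± 0.20, limma adjusted p = 0.0449). Lpin1, whose product acts as a phosphatidate phosphatase and with PGC-1α as a coactivator, fell by 2.53 ± 0.26 on the log2 scale (limma adjusted p = 0.0035). Klf15, a regulator of fasting metabolism, fell by 1.45 ± 0.21 (limma adjusted p = 0.0316). Nr0b2, the gene of the corepressor SHP, had a difference of -1.24 ± 0.24 (limma adjusted p = 0.0953). Of the 17 alternatives, the call of Lpin1 was lost under 1, that of Klf15 under 8 and that of Ppargc1a under 13, with the direction kept under all 17; these repeats were added after seeing the data. The fit without the intensity trend ended all 3 (limma adjusted p = 0.192 for Lpin1). Leaving out 1 array gave limma adjusted p-values up to 0.0256 for Lpin1, 0.118 for Klf15 without the first Nfkbiz array and 0.202 for Ppargc1a without the second. Rxra, the gene of the partner with which PPARα binds DNA, read 3487, 3784 and 4528 with luciferase against 3309, 2414 and 3244 with Nfkbiz, with no overlap (-0.40 ± 0.16, limma adjusted p = 0.353).

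PPARα targets outside the oxidation steps had differences of both signs. Of 18 measured, 0 passed (median 0.18), and 7 had groups without overlap, 5 higher and 2 lower, against 18.0% of all genes (1065 of 13312 higher and 1333 lower). The thioesterase genes Acot1 and Acot3, close paralogs whose probe sets can share signal, had differences of 1.18 ± 0.34 and 1.12 ± 0.32. Pdk4, the kinase gene that restrains pyruvate oxidation, had one of 0.73 ± 0.22. Angptl4, the gene of a lipoprotein lipase inhibitor, went the other way at -0.56 ± 0.18. Their limma adjusted p-values were 0.219, 0.218, 0.244 and 0.251. Cyp4a14, a fatty acid ω-hydroxylase gene and a sensitive PPARα target, had a difference of 0.30 ± 0.37 (limma adjusted p = 0.789).

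**Figure D5:**
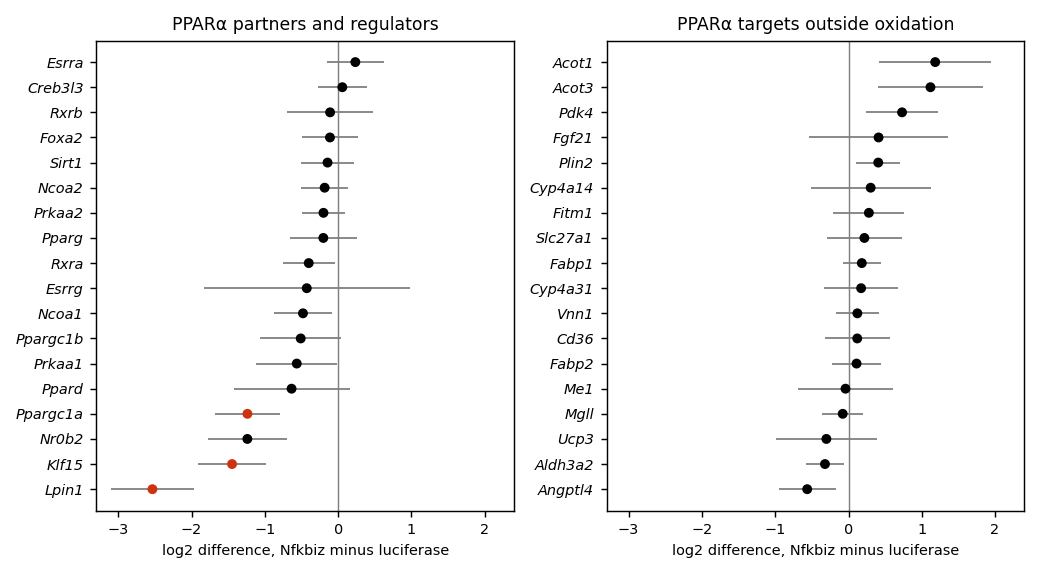
Log2 differences, AAV8-Nfkbiz minus AAV8-luciferase, with 95% confidence intervals (3 arrays per group) for 18 partners and regulators of PPARα (left) and 18 of its targets outside the oxidation steps (right), each sorted by difference; red points passed the adjusted threshold. The 3 red points are Lpin1, Klf15 and Ppargc1a, all below 0, and no target is red.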

How the data were processed

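Each of 6 liver samples was read on 1 Affymetrix 3′ array. The deposited values are linear MAS5 intensities, scaled by the authors to a common target per array; the method, MAS5, is stated per the submitters' processing notes without a version. Probe sets were named from the GEO platform annotation: 34945 of 45037 had 1 symbol, 932 several and 9160 none here. RefSeq tables (GRCm38.p6) supplied promoters.

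Intensities were log2-transformed with no pseudocount. The probe set of highest mean stood for its gene, and genes in the lowest 40% of probe sets (intensity under 47.4) were left out. Groups came from the sample titles. Differences, Nfkbiz minus luciferase, were fitted with limma 3.58.1 in R 4.3.3 (lmFit, eBayes with an intensity trend), two-sided, with Benjamini-Hochberg adjustment over all genes; probe sets were fitted likewise. Errors of means are SD and of differences limma's SE. The fit was tested on simulated data.

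The genes, lists and tests were chosen with earlier results of these data known. All genes of the pathway were to be named, with up to 4 of each further list by smallest p and 7 named in any case. Nothing in the labels says that samples are separate animals, so p-values cover only the spread among them, which may be technical. The number of arrays limits the precision. Alternatives covered scaling, offset, filter, probe set choice, variance prior, array weights, a replicate block and leaving out each array. Figures were drawn with matplotlib 3.10.9.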

Additional observations from a re-analysis of the deposited data

How the results depend on the processing

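Under all 17 alternatives 0 of the 30 genes passed the adjusted threshold, while the number of all genes that passed ran from 0 without the intensity trend to 62 with array weights. At an unadjusted p under 0.05 the main fit had 2 of the 30 genes, against 12.0% of all genes. Median centring gave 1 (9.41% of all genes), the most variable probe set 1 of 26 (9.95%) and no intensity trend 1 (10.1%). Quantile normalization gave 3 (12.6%), loess normalization 3 (12.5%) and array weights 3 (15.1%). Leaving out 1 array gave between 1 and 6, with shares of all genes from 8.61% to 14.1%. Groups without overlap numbered 1 with the mean of a gene's probe sets, 0 with the most variable probe set, and between 3 and 11 when 1 array was left out, a looser criterion. The median difference of the genes was 0.11 in the main fit. It ran from 0.045 after quantile normalization to 0.23 without the third Nfkbiz array. Less the median of all genes it was 0.13 in the main fit, and ran from 0.036 to 0.25 in the same 2 settings. Every alternative lay within 0.15 of the main value, the spread between arrays. That spread is larger than the main median, so this does not show that the median was stable. Arrays with the same replicate number had correlations of deviations from their group means of -0.062, 0.070 and -0.032. These values cannot show whether the samples were paired. With the replicate numbers as a block the call of Ppargc1a was lost (limma adjusted p = 0.0881), 0 of the 30 genes passed and the median was 0.11. In that fit 2 of the 30, Abcd2 and Crot, were at an unadjusted p under 0.05, against 11.6% of all genes.

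Signs held under every alternative for 16 genes and changed for 14, none of them called, and the cause was not tested. The log2 differences with a changed sign were, after quantile normalization, Acadvl -0.047, Hadh -0.0044, Acaa2 -0.096, Abcd3 -0.030 and Hsd17b4 -0.047; after loess normalization, Acadvl -0.047, Hadh -0.042, Acaa2 -0.074, Abcd3 -0.017, Hsd17b4 -0.047 and Acaa1b -0.0082. With the mean of a gene's probe sets, dim ones included, they were Cpt2 0.096, Crat 0.0089, Acadl -0.019, Hadhb -0.17, Abcd3 -0.78 and Hsd17b4 -0.021. With the most variable probe set they were Cpt1a 0.20, Cpt2 0.26, Crat 0.28 and Acadl -0.29, 4 genes having no such probe set above the floor. Array weights gave Acadvl -0.028, Acads 0.0063 and Acaa2 -0.0055. Leaving out 1 array gave ranges of -0.056 to 0.11 for Acadvl, -0.049 to 0.17 for Hadh, -0.085 to 0.12 for Acaa2, -0.14 to 0.18 for Hsd17b4, -0.044 to 0.28 for Acaa1a, -0.19 to 0.0070 for Cpt1a, -0.19 to 0.0054 for Cpt2, -0.19 to 0.13 for Acads, -0.010 to 0.16 for Abcd3 and -0.020 to 0.23 for Etfb.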

Other observations

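On the third luciferase array, fatty acid oxidation probe sets of different kinds gave different values. Probe sets ending in _x_at are those whose probes the array maker marks as able to bind other transcripts, and 11 of the 54 fatty acid oxidation probe sets above the floor are of this kind. Against each probe set's own mean, their median log2 deviation on that array was 0.26, and 5 of the 11 had their highest value there. On the other 5 arrays the median lay between -0.25 and 0.13. The 38 plain _at probe sets had a median of -0.029 on the same array. Over the whole table, 1760 _x_at and 19989 plain probe sets also differed on that array, with medians of 0.10 and -0.022, but by as much in the other direction on the first luciferase array (-0.013 and 0.11) and the second (-0.085 and 0.053). On the Nfkbiz arrays these medians were 0.027 and 0.031, 0.011 and -0.071, and 0.018 and 0.020. Hadhb shows the gap within 1 gene: on that array probe set 1426522_at read 9280.3, the lowest of its 6 values, and 1437172_x_at read 12171, the second highest. Crat, Hadh, Hsd17b4 and Acaa1a are the 4 genes that an _x_at probe set represents in the comparison above. This pattern was noticed after the values were seen, and it was not tested further.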
